A study of Homo sapiens with 8 samples.

Results

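The genes described here encode the machinery of HLA class I antigen presentation, and 9 of the 17131 genes in the table belong to them: the heavy chains HLA-B, HLA-C, HLA-E and HLA-F, the light chain B2M, the peptide transporter subunits TAP1 and TAP2, the loading factor tapasin (TAPBP) and the transactivator NLRC5. They were chosen by name, with earlier results of these data known, and their values were found through the Entrez gene identifiers of the transcripts. The libraries came from HaCaT, an established line of human keratinocytes, and fall into 2 groups of 4 libraries titled M5_O5 and M5. M5 stands for 5 cytokines that together model psoriasis in culture, namely oncostatin M, TNF-α, IL-1α, IL-17A and IL-22, each present at 10 ng/mL for 24 h. OTS514 inhibits the kinase TOPK, the product of PBK, and was used at 10 nM from 12 h before the cytokines. All 8 libraries are from cells given M5, and no unstimulated cells were analysed here. The labels conflict on the inhibitor: by title, M5_O5 would be the group given OTS514 with M5, whereas the treatment field leaves those 4 libraries untreated and places a TOPK inhibitor on the 4 titled M5. Groups are therefore named by title, and every direction below is M5_O5 against M5. Which group received OTS514 cannot be told from the labels.

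Class I molecules carry peptides of proteins made inside the cell to its surface, where CD8 T cells and natural killer cells read them. The proteasome and cytosolic peptidases cut the peptides, TAP1 and TAP2 together pump them into the endoplasmic reticulum, and tapasin holds the empty heavy chain and B2M at the transporter until a peptide is bound. HLA-B and HLA-C are classical, highly variable heavy chains, HLA-E presents leader peptides of other class I chains to natural killer cell receptors, and HLA-F is a less variable, non-classical chain. NLRC5 drives transcription of class I genes, and interferons raise the pathway through factors such as IRF1, while NF-κB acts on an enhancer of the classical genes. In psoriasis, class I is of interest because a class I allele is the strongest known genetic association of the disease.

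The regions just upstream of these genes carry the elements that interferon and NF-κB signals act on, so the 250 bases before the transcription start were read for the members from RefSeq promoter sequences of GRCh38.p14, on the strand of the gene. Of the 9 genes, 7 were matched (HLA-B, HLA-C, HLA-F, B2M, TAP1, TAP2 and TAPBP). Searches ran on both strands, with overlapping matches counted separately, for an interferon-stimulated response element (ISRE: GAAA, any 2 bases, GAAA) and an NF-κB element (GGGA, any 4 bases, CC). The regions of 5 genes are printed. The ISRE is shared by B2M, TAP1, TAP2 and TAPBP, whose levels differed between the groups in different directions or not at all. HLA-B, a classical chain, had no match to this ISRE pattern but had the NF-κB element, which B2M, TAP1 and TAPBP had too. Capitals mark matches to either element.
B2M, chr15:44711267-44711516, plus strand: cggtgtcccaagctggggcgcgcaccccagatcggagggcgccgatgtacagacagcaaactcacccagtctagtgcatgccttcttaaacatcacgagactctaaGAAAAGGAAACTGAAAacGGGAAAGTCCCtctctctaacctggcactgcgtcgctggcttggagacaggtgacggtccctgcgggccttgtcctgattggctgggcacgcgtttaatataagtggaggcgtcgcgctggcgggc
TAP1, chr6:32853705-32853954, minus strand: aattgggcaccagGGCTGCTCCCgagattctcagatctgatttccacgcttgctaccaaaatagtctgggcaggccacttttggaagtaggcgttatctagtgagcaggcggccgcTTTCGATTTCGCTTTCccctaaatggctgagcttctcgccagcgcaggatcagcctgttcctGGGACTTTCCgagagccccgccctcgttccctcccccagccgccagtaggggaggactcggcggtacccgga
TAP2, chr6:32838740-32838989, minus strand: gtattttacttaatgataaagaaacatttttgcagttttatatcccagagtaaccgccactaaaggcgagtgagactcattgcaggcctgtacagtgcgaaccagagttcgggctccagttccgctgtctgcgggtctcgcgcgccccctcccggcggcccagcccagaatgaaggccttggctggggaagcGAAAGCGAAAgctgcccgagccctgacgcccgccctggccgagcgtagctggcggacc
TAPBP, chr6:33314079-33314328, minus strand: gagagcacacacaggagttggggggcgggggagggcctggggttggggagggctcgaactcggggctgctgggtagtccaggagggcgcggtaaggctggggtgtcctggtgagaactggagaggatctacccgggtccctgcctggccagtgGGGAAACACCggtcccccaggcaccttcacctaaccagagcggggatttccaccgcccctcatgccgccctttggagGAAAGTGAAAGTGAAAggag
HLA-B, chr6:31357180-31357429, minus strand: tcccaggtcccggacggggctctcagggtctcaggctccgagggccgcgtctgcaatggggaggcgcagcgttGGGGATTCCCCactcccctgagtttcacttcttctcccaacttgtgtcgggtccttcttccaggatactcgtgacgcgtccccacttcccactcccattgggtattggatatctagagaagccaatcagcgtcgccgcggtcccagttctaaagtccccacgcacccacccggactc

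The ISRE was found in 5 of the 7 regions (HLA-F, B2M, TAP1, TAP2 and TAPBP), compared with 3.02% of 35116 promoter regions of the same length. In B2M, TAP1 and TAPBP there were 2 matches that overlap, and in TAP2 and HLA-F a single match. The NF-κB element was found in 5 of the 7 (HLA-B, HLA-C, B2M, TAP1 and TAPBP), compared with 22.6% of all promoter regions, and in HLA-B it lay 176 to 167 bases before the start, overlapping a further match shifted by a base. A further start of TAP1 in the same source had a region with 0 matches to the ISRE. The TAP1 start lies 488 bases from that of PSMB9, an immunoproteasome gene read in the opposite direction, and the printed TAP1 region shares 13 bases with the corresponding region of PSMB9. A match is a stretch of letters and does not show that a factor was bound. A missing match to these fixed patterns does not show that a region lacks such an element.

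Total counts per library lay between 13708055 and 16922693, with the smallest total in M5 replicate 1. Over all genes, M5 replicate 1 stood apart from the other M5 replicates, with a chi-square per gene of 10.35 to 16.49 against them and of 2.03 to 4.06 among the others, and the pairs of M5_O5 replicate 1 lay at 7.12 to 11.1 and the other M5_O5 pairs at 3.05 to 7.15. In all, 12434 genes had enough counts to be tested. The groups were tested in edgeR by quasi-likelihood, with Benjamini-Hochberg adjustment over all these genes, and the call threshold was an adjusted p under 0.05. Levels are given as CPM, counts scaled to a common library size with TMM factors, with n = 4 per group, and nothing beyond the titles says that the replicates were separate cultures, so the p-values measure the spread between these samples, which may be technical. Of all genes, 2421 (19.5%) were higher and 2192 (17.6%) lower in M5_O5, and 3.2% were called with a change of at least 2-fold. Scaling by library size alone gave 3858 higher and 1010 lower, and limma on log2(TPM + 1) and log2(TPM + 0.1) gave 3261 and 761 and then 3264 and 768. Library size alone moved the median log2 fold change of all genes from 0.01 to 0.13. On log2(TPM + 1) and log2(TPM + 0.1) this median was 0.116 and 0.135. PBK itself was at 3.602, 2.93, 2.25 and 3.15 CPM in M5_O5 and at 2.63, 0.588, 0.987 and 0.685 CPM in M5, a log2 fold change of 1.32 ± 0.34 (SE, edgeR adjusted p = 0.00738) with overlapping groups, and the inhibitor acts on the kinase rather than on its transcript, so this does not settle the labels.

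The libraries showed keratinocyte RNA in both groups. Of 12 keratinocyte markers tested, 8 were lower and 0 higher in M5_O5, beside 17.6% lower and 19.5% higher among all genes. Their summed level was 21730 to 24140 CPM in M5_O5 and 25800 to 30490 CPM in M5. These are genes of high level, and such genes were lower in M5_O5 across the whole table, as described below. The median log2 fold change was -0.288 for the markers and -0.153 for all genes in the highest of 10 level bins. The immune cell markers summed to 31.7 to 37.4 CPM in M5_O5 and 36.2 to 40.5 CPM in M5, nearly all of it CD14, while the leukocyte gene PTPRC and the Langerhans cell gene CD207 were at 0 in every library, and 0 of the 1 marker tested was called. Fibroblast markers summed to 33.0 to 36.6 CPM in M5_O5 and 43.0 to 58.3 CPM in M5, with 1 of 3 tested lower, which was COL1A1. COL1A2 and COL3A1 were at 0 in every M5_O5 library, but in M5 they reached only 0.872 and 0.329 CPM, too low to be tested. Endothelial markers summed to 3.10 to 3.85 CPM in M5_O5 and 0.311 to 1.11 CPM in M5, with CDH5 the 1 marker tested and higher, and melanocyte markers summed to 0.697 to 1.09 CPM and 0.803 to 0.914 CPM with none tested. The part of these differences in the results below was not tested.

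The class I genes did not all move the same way between M5_O5 and M5. Of the 9 genes, which all passed the filter on low counts, TAP2 and NLRC5 were higher in M5_O5, B2M and HLA-E were lower, and HLA-B, HLA-C, HLA-F, TAP1 and TAPBP were not called. None of the 9 reached 2-fold. Their median log2 fold change was -0.09, beside 0.01 for all genes tested, and 4 of the 9 had groups that did not overlap, beside 33.6% of all genes. These shares are close to the background and are no result about the 9 genes as a group. In bulk RNA, fewer cells and less RNA per cell cannot be told apart.

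**Figure D1:**
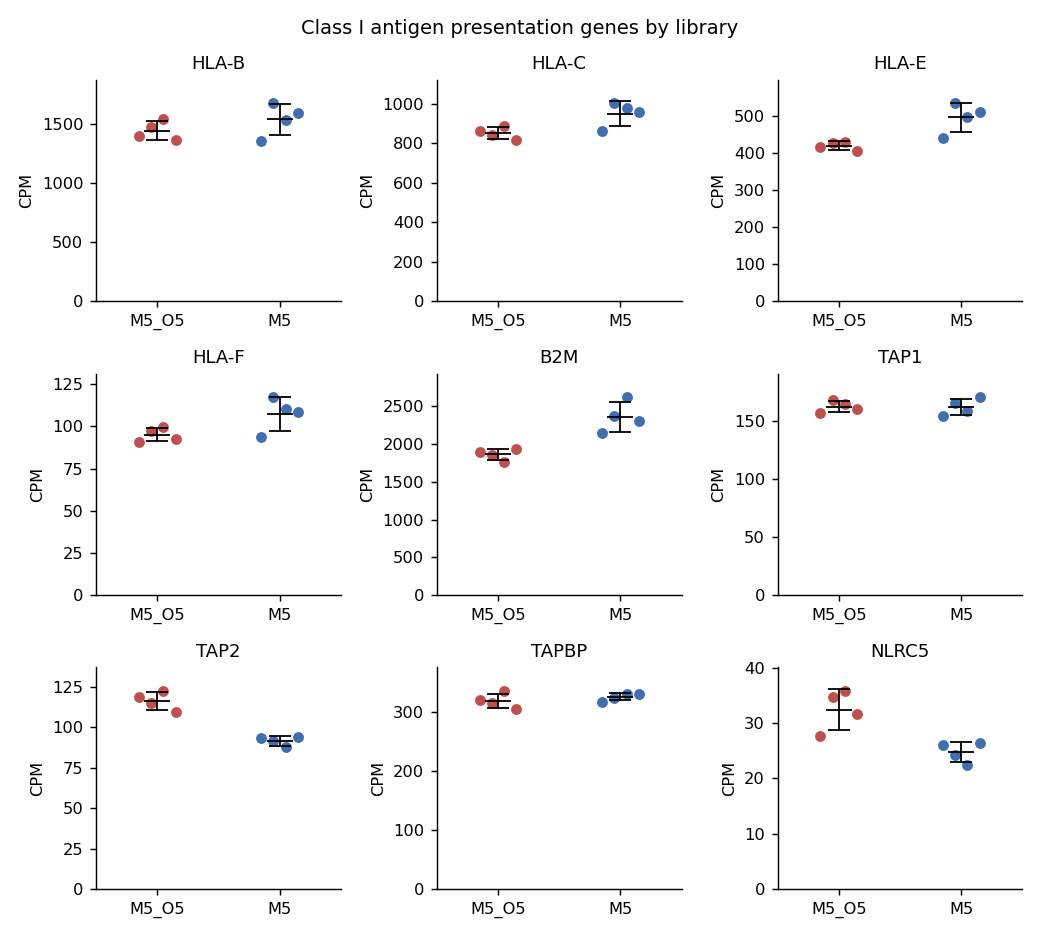
TMM-scaled CPM (y axes, from 0) of the 9 class I genes in each library of the groups M5_O5 (red) and M5 (blue), with points for single libraries in replicate order and black bars for the mean ± SD (n = 4). B2M and HLA-E sit lower in all 4 M5_O5 libraries, TAP2 and NLRC5 sit higher in all 4, and the other 5 genes overlap.

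Length-adjusted levels set the order of the members. In TPM, which also divides by transcript length, averaged over the 8 libraries, the light chain B2M stood first at 5154 ± 519 (SD, n = 8), followed by HLA-B at 1918 ± 62.8 and HLA-C at 1153 ± 34.4. HLA-E came next at 318.5 ± 15 TPM. TAPBP at 179 ± 10.1 and HLA-F at 174.4 ± 13.3 TPM had overlapping ranges over the 8 libraries, and their order differed between the groups. In M5_O5 every TAPBP value lay above every HLA-F value (184.3 ± 9.92 and 163.9 ± 5.02 TPM, SD, n = 4), while in M5 the means were 173.7 ± 8.04 for TAPBP and 184.8 ± 9.82 for HLA-F, with overlapping values. The transporter subunits followed with TAP1 at 108 ± 6.61 and TAP2 at 52.9 ± 9.27 TPM, and NLRC5 was lowest at 7.64 ± 1.51 TPM. All other neighbours in this order were separated in every library, and B2M was 2.69 times as abundant as the most abundant heavy chain among the members.

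All 4 heavy chains had a lower mean CPM in M5_O5 than in M5, and of these HLA-E alone passed the test. HLA-E was measured at 416, 428, 431 and 405 CPM in M5_O5 and at 441, 533, 497 and 511 CPM in M5. Every M5_O5 library was below every M5 library, with M5 replicate 1 the nearest to them, and the log2 fold change was -0.24 ± 0.062 (SE, edgeR adjusted p = 0.00742). The two-sided exact permutation p was 0.0286, and 4 against 4 libraries cannot go lower. With library size alone as the scaling, HLA-E was no longer called (log2 fold change -0.12, edgeR adjusted p = 0.0711), nor was it on the TPM scales (-0.11 on both, limma adjusted p = 0.066 and 0.0697). The median log2 fold change of all genes was 0.128 with library size alone and 0.116 and 0.135 on the TPM scales.

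HLA-B, the most abundant heavy chain among the members, gave 1397, 1475, 1540 and 1367 CPM in M5_O5 and 1360, 1675, 1531 and 1596 CPM in M5. The lowest value of all belonged to an M5 library, replicate 1, and the groups overlapped (log2 fold change -0.09 ± 0.070, edgeR adjusted p = 0.321). HLA-C gave 862, 842, 885 and 817 CPM in M5_O5 and 863, 1001, 980 and 956 CPM in M5, with a log2 fold change of -0.16 ± 0.060 that just missed the threshold (edgeR adjusted p = 0.0504). HLA-F gave 90.7, 97.4, 99.4 and 92.8 CPM in M5_O5 and 93.5, 117, 110 and 108 CPM in M5, with a log2 fold change of -0.18 ± 0.067 (edgeR adjusted p = 0.0545). In all 4 heavy chains M5 replicate 1 was the lowest library of its group. Heavy chain genes are near copies of each other, so the division of reads between them is uncertain.

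Leaving out that library added calls among the heavy chains. Without M5 replicate 1, HLA-B (log2 fold change -0.15, edgeR adjusted p = 0.0464), HLA-C (-0.20, edgeR adjusted p = 0.00431) and HLA-F (-0.24, edgeR adjusted p = 0.00291) were called lower as well, so that the members called lower went from 2 to 5. With all libraries kept, HLA-C was also called with DESeq2 (-0.17, DESeq2 adjusted p = 0.0153) and HLA-F with DESeq2 (-0.19, DESeq2 adjusted p = 0.0422) and on the log2(TPM + 1) scale (-0.17, limma adjusted p = 0.0266), whereas HLA-E was called with and without M5 replicate 1. In TPM, in contrast, HLA-B averaged 1941 ± 64.6 in M5_O5 and 1895 ± 60.5 in M5 (SD, n = 4). The sign of the HLA-B difference thus depended on the scale, but so did the median of all genes. On log2(TPM + 1), HLA-B had a log2 fold change of 0.03 (limma adjusted p = 0.638), below the median of all genes at 0.116. With TMM it was at -0.09, also below the median of all genes, at 0.01.

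The light chain, which pairs with every heavy chain, was lower in M5_O5. B2M was measured at 1894, 1856, 1760 and 1934 CPM in M5_O5 and at 2140, 2363, 2617 and 2297 CPM in M5. The groups were apart, with the lowest M5 library above the highest M5_O5 library, and B2M was 21.0% lower in M5_O5 (log2 fold change -0.34 ± 0.068, edgeR adjusted p = 0.0016, two-sided exact permutation p = 0.0286). Counts behind these values ran from 29338 to 39785 per library.

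The 2 transporter subunits gave different calls. TAP2 was measured at 119, 115, 123 and 110 CPM in M5_O5 and at 93.3, 91.6, 87.6 and 94.2 CPM in M5. All M5_O5 libraries were above all M5 libraries, and TAP2 was 27.1% higher (log2 fold change 0.35 ± 0.054, edgeR adjusted p = 0.000243, two-sided exact permutation p = 0.0286). TAP1 was measured at 157, 168, 165 and 160 CPM in M5_O5 and at 154, 165, 158 and 170 CPM in M5. These groups overlapped throughout, with a log2 fold change of 0.00 ± 0.052 (edgeR adjusted p = 0.982). The log2 ratio of TAP2 to TAP1, whose products work as a pair, was -0.478 ± 0.076 in M5_O5 and -0.821 ± 0.065 in M5 (SD, n = 4), a difference of 0.34 with separate groups (two-sided exact permutation p = 0.0286, unadjusted). This ratio and those below were chosen after the values were seen, so their p-values are no independent support.

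Tapasin, the bridge between the transporter and the empty class I molecule, did not pass the test. TAPBP was measured at 319, 314, 335 and 305 CPM in M5_O5 and at 317, 323, 330 and 329 CPM in M5, with a log2 fold change of -0.03 ± 0.050 (edgeR adjusted p = 0.675). The lowest and the highest library were both from M5_O5.

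NLRC5, the transactivator of class I genes and the least abundant member, was higher in M5_O5. It was measured at 27.7, 34.7, 35.8 and 31.7 CPM in M5_O5 and at 26.0, 24.2, 22.4 and 26.3 CPM in M5. The groups were separate but close at their edges, where M5_O5 replicate 1 and M5 replicate 4 differed little, and NLRC5 was 31.2% higher (log2 fold change 0.39 ± 0.087, edgeR adjusted p = 0.00312, two-sided exact permutation p = 0.0286). Counts ran from 341 to 604 per library.

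Calls of TAP2 and NLRC5 were made in all 18 alternatives of tool, scaling, filter, block and left-out library, and that of B2M in 17 of 18. HLA-E was called in 14 of 18. TAP1 was called higher only on the limma TPM scales (log2 fold change 0.14 on both, limma adjusted p = 0.0446 and 0.0469), and TAPBP in none of the 18. On those TPM scales the median log2 fold change of all genes was 0.116 and 0.135, so TAP1 lay near the median gene.

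**Figure D2:**
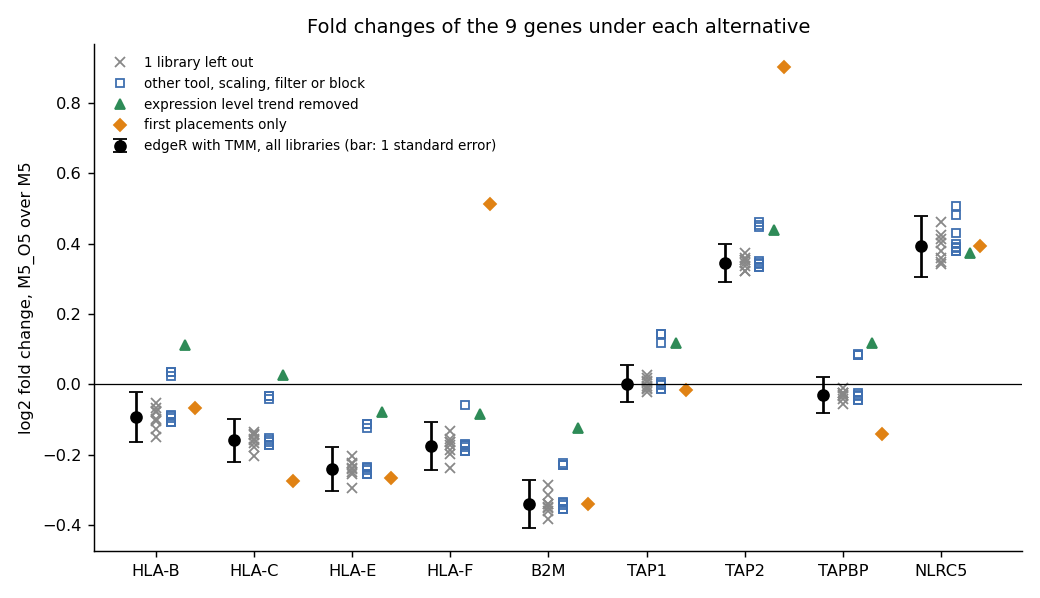
Log2 fold change of M5_O5 over M5 (y axis) for the 9 class I genes under edgeR with all libraries (black, bars of 1 SE) and under 18 alternatives. TAP2 and NLRC5 stay above 0 and B2M and HLA-E below 0 throughout, HLA-B, HLA-C, TAP1 and TAPBP have values on both sides of 0, and HLA-F turns to 0.51 when only first placements are counted.

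The fold changes of the members have to be read against their level, because genes of high level were lower in M5_O5 across the whole table. With all genes tested split into 10 equal bins by mean level, the median log2 fold change went from 0.265 in the lowest bin to -0.153 in the highest. HLA-B, HLA-C, HLA-E, B2M, TAP1 and TAPBP belonged to the highest bin, HLA-F and TAP2 to the next, where the median was -0.107, and NLRC5 to bin 6, where it was 0.01. With this trend removed, B2M had a log2 fold change of -0.12 (edgeR adjusted p = 0.188) and HLA-E one of -0.08 (edgeR adjusted p = 0.36), so neither was called. TAP2 (0.44, edgeR adjusted p = 4.59e-05) and NLRC5 (0.37, edgeR adjusted p = 0.00518) were still called.

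**Figure D3:**
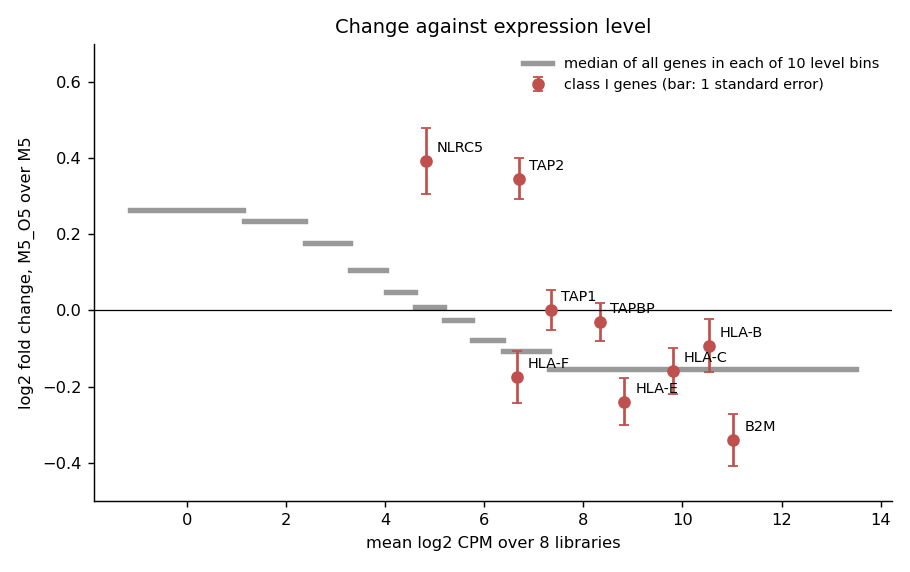
Log2 fold change of M5_O5 over M5 (y axis) against mean log2 CPM over 8 libraries (x axis) for the 9 class I genes (red, bars of 1 SE), with grey lines for the median of all genes in each of 10 bins of genes ordered by level. TAP2 and NLRC5 lie far above the grey lines, B2M lies below the line of the highest bin at -0.153, and HLA-C lies on it.

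The table lists many of these genes at more than 1 genomic placement, and human reference genomes hold several alternate versions of the class I region. A transcript then has a first placement and extra ones, and the reads were divided among them. Among 289 genes with a single transcript and several placements, the sums over placements were whole numbers within 0.05 in 78.9% of values above 1, and single placements were whole within the same tolerance in 27.9%. All placements were therefore added. The share of a gene's counts on first placements was 100% for NLRC5 and at least 99.96% for B2M, but 45.6 to 48.0% for HLA-B, 31.5 to 33.0% for HLA-E, 11.7 to 22.0% for HLA-F, 5.68 to 8.37% for TAPBP and 0.783 to 1.26% for HLA-C. TAP1 had 16.3 to 16.7% there.

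TAP2 was divided unevenly between libraries, with 26.7 to 70.02% of its counts on first placements. For its transcript NM_018833, M5_O5 replicates 1 and 3 had 965 and 1052 counts on the first placement, while M5_O5 replicates 2 and 4 had 324 and 282. With first placements alone, TAP2 would be at a log2 fold change of 0.90 (edgeR adjusted p = 0.0326) and HLA-F at 0.51 (edgeR adjusted p = 0.000297), the reverse of the sign of its total. HLA-C would be at -0.27 (edgeR adjusted p = 0.227).

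**Figure D4:**
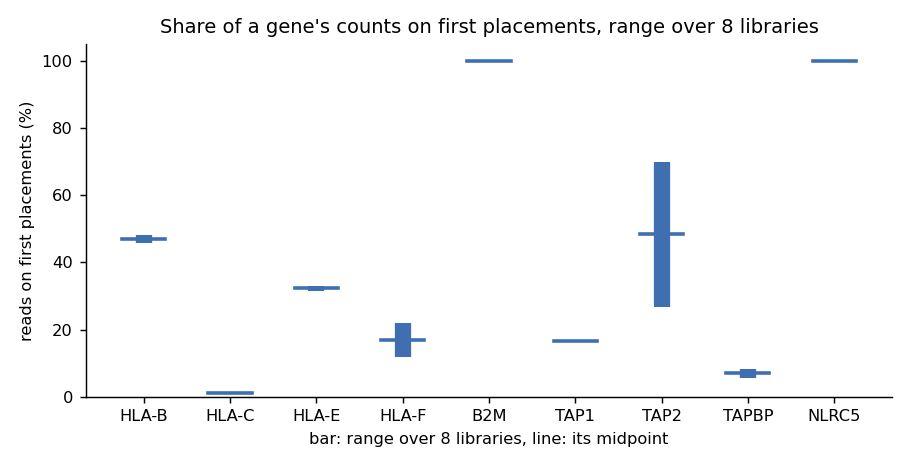
Share of each class I gene's estimated counts on the first placements of its transcripts (y axis, percent), with bars for the range over 8 libraries and lines for its midpoint. NLRC5 and B2M sit at or near 100%, HLA-C near 1%, and TAP2 spans 26.7 to 70.02%.

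Transcripts of the same gene did not always follow its total. In B2M, the main transcript NM_004048 averaged 1790 ± 72.5 CPM in M5_O5 and 2300 ± 199 CPM in M5 (SD, n = 4), while the predicted transcript XM_005254549 averaged 66.1 ± 2.71 and 51.7 ± 0.538 CPM. The first was lower and the second higher in all 4 M5_O5 libraries. In HLA-F, NM_018950 averaged 61.9 ± 3.79 CPM in M5_O5 and 75.3 ± 4.97 CPM in M5, and the predicted XM_017010810 averaged 9.94 ± 0.664 and 6.69 ± 0.407 CPM, again separate in opposite directions. In TAP2, NM_000544 (38.9 ± 2.91 against 28.1 ± 2.08 CPM) and NM_018833 (57.3 ± 5.41 against 46.2 ± 3.39 CPM) were both higher in all 4 M5_O5 libraries, and NM_001290043 (20.3 ± 1.25 against 17.4 ± 2.48 CPM) overlapped. These values are estimates of how reads divide between overlapping transcripts, and they are given without a test.

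Over the 8 libraries, the heavy chains varied together, with Pearson r of their log2 CPM between 0.84 and 0.962 for the 6 pairs of members, and between 0.886 and 0.968 with the group means removed. B2M ran opposite to TAP2 (r = -0.955, or -0.747 with group means removed) and to NLRC5 (r = -0.921, or -0.683), and showed little relation to TAP1 (r = -0.048). TAP2 and NLRC5 had r = 0.872, which was 0.392 with group means removed. These are descriptions over 8 points that share library, depth and scaling. The genes outside the lists whose pattern was most like the mean of the members were EML2 (r = 0.984), AP1G2 (0.981), PRKCSH (0.978), FHIP1B (0.978) and CD276 (0.975) over 8 libraries, and none of these 5 was called. That mean joins members that ran in opposite directions, so likeness to it is not likeness to each member.

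The genes of peptide supply include those of the immunoproteasome, whose interferon-inducible subunits replace the constitutive ones and favour peptides that class I binds. Of the 5 genes of the immunoproteasome and its activator PA28, 4 were higher in M5_O5 and 0 lower, beside 19.5% and 17.6% of all genes, and the median log2 fold change was 0.34 beside 0.01. The lists were chosen with earlier results of these data known, so their shares are descriptions and no independent support. PSMB9, the neighbour of TAP1, averaged 27.3 ± 0.607 CPM in M5_O5 and 20.5 ± 1.90 CPM in M5 (SD, n = 4), a log2 fold change of 0.41 ± 0.076 (SE, edgeR adjusted p = 0.000834). PSMB8 was at 0.34 ± 0.074 (edgeR adjusted p = 0.00242), and the PA28 subunits PSME2 at 0.34 ± 0.055 (edgeR adjusted p = 0.000306) and PSME1 at 0.24 ± 0.069 (edgeR adjusted p = 0.0131). In all 4 the groups were separate. The third catalytic subunit, PSMB10, was at 0.03 ± 0.081 (edgeR adjusted p = 0.811).

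The constitutive counterparts gave 1 higher of 5, close to the 19.5% of all genes, which was PSMB5 (log2 fold change 0.29 ± 0.065, edgeR adjusted p = 0.00332), and a median of 0.07. The log2 ratio of PSMB9 to TAP1 differed by 0.41 between the groups, which were separate (two-sided exact permutation p = 0.0286, unadjusted), and that of PSMB8 to TAP2 by -0.0017, with overlapping groups (exact p = 0.943).

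Among 8 genes of peptide loading and trimming in the endoplasmic reticulum, the chaperone CALR (0.20, edgeR adjusted p = 0.0187) and the disulfide isomerase PDIA3 (0.27, edgeR adjusted p = 0.00192), both partners of tapasin, were higher and 0 were lower, with a median log2 fold change of 0.11, and 2 of 8 higher is close to the 19.5% of all genes. The trimming peptidases ERAP1 (0.00, edgeR adjusted p = 0.968) and ERAP2 (0.15, edgeR adjusted p = 0.29) were not called. Among 6 cytosolic peptidases, LAP3 (0.36), BLMH (0.37) and THOP1 (0.31) were higher and NPEPPS (-0.16) lower, with edgeR adjusted p of 0.00157, 0.00548, 0.0156 and 0.0277, and a median of 0.18, beside 19.5% higher and 17.6% lower among all genes.

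Of 13 factors known to act on class I promoters, 3 were higher and 3 lower, with a median log2 fold change of -0.02, which is close to the 19.5% and 17.6% of all genes and no result about the list. IRF1, the interferon-induced activator that binds the ISRE, averaged 133 ± 9.76 CPM in M5_O5 and 116 ± 4.26 CPM in M5 (0.20 ± 0.061, edgeR adjusted p = 0.0168), with overlapping groups. RFX5 (0.31 ± 0.053, edgeR adjusted p = 0.000421) and RFXANK (0.25 ± 0.092, edgeR adjusted p = 0.0446), parts of the complex that carries NLRC5 to its promoters, were higher too. RELA and NFKB1, the only NF-κB subunits in this list, were lower. RELA averaged 171 ± 12.6 CPM in M5_O5 and 231 ± 24.96 CPM in M5 (-0.43 ± 0.077, edgeR adjusted p = 0.000656), and NFKB1 was at -0.19 ± 0.052 (edgeR adjusted p = 0.0109). CREB1 was lower (-0.19, edgeR adjusted p = 0.0322).

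Of 10 interferon receptors and signalling genes, 2 were higher and 5 lower, beside 19.5% and 17.6% of all genes, with a median log2 fold change of -0.17. The receptor chain IFNGR2 was the most changed of those lower, at 56.6 ± 2.69 CPM in M5_O5 and 84.3 ± 10.6 CPM in M5 (-0.58 ± 0.081, edgeR adjusted p = 0.00011), while its partner IFNGR1 was higher (0.20 ± 0.061, edgeR adjusted p = 0.0217). The kinase JAK1 was lower (-0.36, edgeR adjusted p = 0.000181) and JAK2 higher (0.69, edgeR adjusted p = 0.00368). IFNAR2 (-0.35), IRF9 (-0.24) and TYK2 (-0.18) were lower as well, with edgeR adjusted p of 0.00183, 0.0157 and 0.039.

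Interferon-stimulated genes were taken as a reference for the members. Of 34 tested of 35 listed, 8 were higher and 8 lower in M5_O5, with a median log2 fold change of 0.07, and these shares are close to the 19.5% and 17.6% of all genes. IFIT2 (1.60 ± 0.086, edgeR adjusted p = 4.51e-08), GBP1 (1.07 ± 0.093, edgeR adjusted p = 2.56e-06) and IFIT3 (1.03 ± 0.067, edgeR adjusted p = 2.42e-07) were higher by 2-fold or more, and IFI6 (-0.65 ± 0.077, edgeR adjusted p = 2.83e-05), IFI27 (-0.59 ± 0.12, edgeR adjusted p = 0.00211) and XAF1 (-0.47 ± 0.12, edgeR adjusted p = 0.00822) were lower. The 8 higher became 5 without M5_O5 replicate 2, M5 replicate 2 or M5 replicate 3. The 8 lists of pathway genes leave out the interferon-stimulated genes and include the class I-like and class II lists described further below. Over these 8 lists, 66 of 69 genes were tested, of which 25 were higher and 12 lower. This stands beside 19.5% higher and 17.6% lower among all genes, and the median was 0.07 beside 0.01. The class I-like list gave 6 of the higher calls and 0 of the lower, and the class II list 4 and 3.

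**Figure D5:**
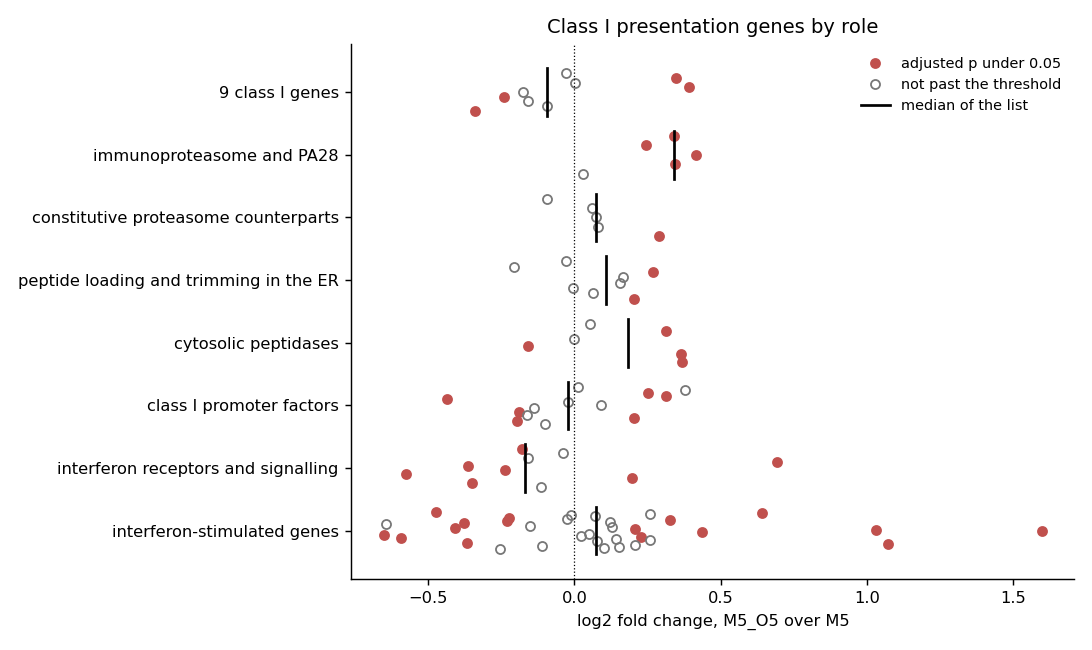
Log2 fold change of M5_O5 over M5 (x axis) for the 9 class I genes and the genes of 7 lists by role, with a point per gene, filled red at an adjusted p under 0.05, and a black line for the median of each list. The immunoproteasome list is shifted to a median of 0.34 with 4 of 5 genes called, while the 9 class I genes, the promoter factors and the interferon-stimulated genes have called genes on both sides of 0.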

How the data were processed

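RNA sequencing of 8 HaCaT libraries was used. According to the study's methods, the authors filtered reads, mapped them with HISAT2 and counted them with StringTie. The submitters' processing notes name HISAT2 2.1.0, Bowtie2 2.2.5, RSEM 1.2.8 and the mouse build mm10, although the rows are human RefSeq transcripts. The human build and annotation version are not given in the sources used here. The authors deposited an estimated count, TPM and FPKM per transcript and library, and group means that were not used. Of the deposited estimated counts, 53.8% were fractional. All library columns were assigned by title, and FPKM was not used.

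Estimated counts of 86639 transcripts, of which 4181 are extra placements, were summed to 17131 genes and rounded. RefSeq (GRCh38.p14) names matched 17072 identifiers. Genes kept by filterByExpr (12434) were compared by edgeR 4.0.16 (R 4.3.3) with TMM scaling and its quasi-likelihood test, adjusted by Benjamini-Hochberg. The standard error is the fold change over the square root of its F value, and the biological coefficient of variation was 7.42%. TPM was summed per gene for levels. Exact permutation tests used 70 splits. Replicate pairs differed by more than counting noise (chi-square per gene 2.03 to 16.5), so no library was taken as a duplicate, which does not show that the replicates were separate cultures. The code was tested on simulated data.

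Alternatives were DESeq2 1.42.0, its size factors, library size alone, 2 other filters, limma 3.58.1 on log2(TPM + 1) and log2(TPM + 0.1), the replicate number as a block, first placements only, the level trend removed, and each library left out. Members and lists were chosen with earlier results of these data known. Genes named were the members, genes of the lists, PBK, and the 5 other genes, averaging 1 CPM or more, most correlated with the members' mean. A planned sum over several genes is not reported here.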

Additional observations from a re-analysis of the deposited data

How the results depend on the processing

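The 2 members higher in M5_O5 numbered 2 or 3 under every alternative, and none reached 2-fold under any. The 2 members lower became 4 with DESeq2, 4 with its size factors in edgeR, 4 with the replicate block, 1 with library size alone and 0 with the level trend removed, and ranged from 2 to 5 when a library was left out, with 5 without M5 replicate 1. With first placements only, HLA-F turned to 0.51. With the replicate block, HLA-C (-0.16, edgeR adjusted p = 0.0233) and HLA-F (-0.17, edgeR adjusted p = 0.0176) were called as well. Deviations of same-numbered libraries correlated at -0.0036 to 0.209, beside -0.201 to 0.206 for libraries of different number. With so few libraries, these values cannot tell whether the replicate numbers pair the samples. The 12 pathway genes lower became 6 with library size alone, 5 with limma on log2(TPM + 1), 6 on log2(TPM + 0.1) and 7 with the level trend removed, and ranged from 8 to 13 with a library left out, while the 25 higher became 33 with library size alone and 30 on each limma TPM scale. The 8 interferon-stimulated genes higher became 5 with the level trend removed and 12 with library size alone, and ranged from 5 to 10 with a library left out. The 8 lower became 5 on each limma TPM scale. Over all genes, 2421 higher and 2192 lower became 2011 and 1696 with the trend removed. The cause of these shifts was not tested. NLRC5 has the fewest counts of the members (341 to 604).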

Other observations

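Class I-like molecules, which share the class I fold but serve other purposes, were higher in M5_O5 in 6 of 8 genes tested and lower in 0, beside 19.5% and 17.6% of all genes, with a median log2 fold change of 0.40 beside 0.01. This list too was chosen with earlier results of these data known. It holds genes of low level, such as CD1D (7 to 48 counts per library) and ULBP3 (18 to 58), while MICA, MICB and MR1 are of higher level. In bins 1, 2 and 3 of the 10 level bins the median of all genes was 0.265, 0.234 and 0.176. For genes of such low level, 0.01 is therefore too low a reference. Among the stress-induced ligands of the natural killer cell receptor NKG2D, ULBP2 averaged 17.9 ± 2.45 CPM in M5_O5 and 10.5 ± 0.690 CPM in M5 (SD, n = 4), a log2 fold change of 0.77 ± 0.10 (SE, edgeR adjusted p = 8.28e-05). ULBP3 (0.89, edgeR adjusted p = 0.00232), MICA (0.30, edgeR adjusted p = 0.00448) and MICB (0.26, edgeR adjusted p = 0.003) were higher too. The lipid-presenting CD1D was at 2.56 ± 0.227 and 0.974 ± 0.369 CPM (1.38 ± 0.24, edgeR adjusted p = 0.000558), and HFE, a regulator of iron uptake, was higher by 0.50 (edgeR adjusted p = 0.00639). MR1, which presents vitamin B metabolites, was at -0.11 (edgeR adjusted p = 0.167).

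Class II genes were called in both directions. CIITA, a relative of NLRC5, averaged 38.1 ± 3.35 CPM in M5_O5 and 11.7 ± 3.06 CPM in M5 (SD, n = 4), a log2 fold change of 1.71 ± 0.13 (SE, edgeR adjusted p = 9.57e-07). Of the 11 genes of the list, 4 were higher, 3 lower, beside 19.5% and 17.6% of all genes, and the median was -0.04. The peptide exchange factors HLA-DMB (0.84, edgeR adjusted p = 0.00181) and HLA-DMA (0.44, edgeR adjusted p = 0.00195), together with HLA-DQB1 (0.20, edgeR adjusted p = 0.0351), were higher, and the invariant chain CD74 (-0.30, edgeR adjusted p = 0.00466), HLA-DQA1 (-0.45, edgeR adjusted p = 0.0109) and HLA-DRB1 (-0.21, edgeR adjusted p = 0.02) were lower. HLA-DRB1, HLA-DQA1 and HLA-DQB1 belong to families of near-identical copies, so their counts are uncertain.

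In none of 18 groups of 4 values checked did a single library stand apart by Dixon's criterion at the 95% level, a check of the 9 genes in each group and not of all genes.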
